A study of Mus musculus with 7 samples.

Results

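Glycolysis and hypoxia response genes were described in mouse macrophages grown from bone marrow, on 7 Affymetrix arrays. The list holds 36 genes: transporters of glucose and lactate, the enzymes of glycolysis, switches of its flux, the oxygen-regulated factor HIF-1 with its hydroxylases, and genes known to respond to low oxygen. A gene was taken as measured when a probe set carried its symbol and no other, and the brightest of its probe sets, by mean level, stood for it. That gave 33 of the 36 genes, of 18194 genes in all. Gpi1, Eno1 and Bnip3l were not analysed here. Gapdh was read from the platform's own Gapdh control probe sets. Strain, sex, age and the number of animals are not given in the sources used here. For the first 24 h the cells had no ligand (naive cells) or a bacterial product (pretreated cells). A second period of 3 h followed, again with or without a product. The products were MDP, muramyl dipeptide from the bacterial cell wall, which is sensed inside the cell through Nod2, and Pam3CSK4, a synthetic lipopeptide sensed at the surface through Tlr2. The labels give 10 mg/ml for MDP and 1 mg/ml for Pam3CSK4, as printed there. Whether a micro sign was lost in that unit is not known from the sources used here, so the doses are uncertain. The arrays were naive cells with no ligand, naive cells with MDP, naive cells with Pam3CSK4, MDP-pretreated cells given MDP, MDP-pretreated cells given Pam3CSK4, Pam3CSK4-pretreated cells given MDP, and Pam3CSK4-pretreated cells given Pam3CSK4. Pretreated cells without a second ligand are not among these arrays, so pretreatment is seen only together with a later ligand.

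Glycolysis converts glucose to pyruvate in the cytosol. Macrophages stimulated through Toll-like receptors are known to draw more of their energy and biosynthetic precursors from it and to release lactate. HIF-1 is a transcription factor whose alpha subunit, encoded by Hif1a, is marked for destruction by prolyl hydroxylases when oxygen is present. When stable it raises transcription of most glycolytic enzymes and of genes for mitophagy, collagen modification and blood vessel growth. In macrophages NF-kB signalling is also known to raise Hif1a transcription.

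Each group had 1 array, so no difference has a replicate check, no p-value is given, and precision is limited by having 7 arrays. Values are log2 RMA levels, and differences are log2 differences of 2 arrays unless a fold is given. Genes past 2-fold are counted, and the 3-fold threshold of the study's design text is added for naive cells against unstimulated cells. All 33 genes lay above the median of every array, where array medians were 5.48 to 5.55. All 8 measured macrophage markers were above it too. Among markers of other cell types, 5 of 6 neutrophil, 2 to 3 of 7 T and NK cell, 2 to 3 of 5 B cell, 1 to 2 of 5 dendritic cell, 2 of 5 stromal, and 2 of 5 mast and erythroid markers were above it. The 3 probe sets for 18S ribosomal RNA lay 1.45 to 2.47 above the unstimulated array on the array of Pam3CSK4-pretreated cells given Pam3CSK4, and 0.20 to 0.72 above it on the other 5 arrays. Gapdh probes at the 3' and 5' ends of the transcript differed by 0.02 to 0.09 on every array.

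**Figure D1:**
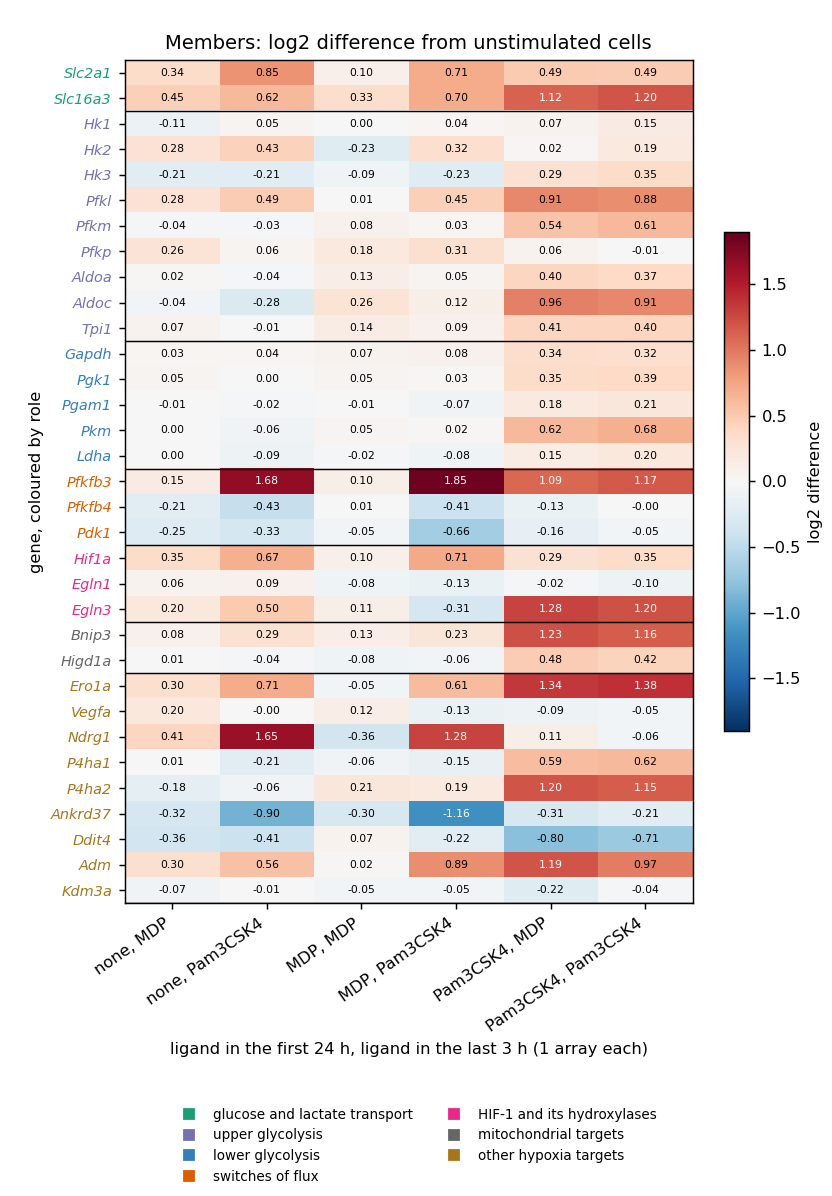
Heat map of the 33 measured genes (rows, coloured by role) on the 6 stimulated arrays (columns), with the log2 difference from the unstimulated array written in each cell; red is higher and blue lower. Pfkfb3 and Ndrg1 stand out in the columns of naive and MDP-pretreated cells given Pam3CSK4, and Bnip3, Egln3, Ero1a, P4ha2 and Slc16a3 in the columns of Pam3CSK4-pretreated cells.

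In naive cells given MDP no gene of the list was past 2-fold from the unstimulated level. None of the 33 genes was 2-fold higher, against 0.583% of all genes, and none was 2-fold lower, against 0.17%. The list median was 0.03, where the median over all genes was 0.00. Above 0 were 22 genes, or 16 with arrays centred on their medians, 23 with arrays centred on housekeeping genes and 26 with cyclic loess. The differences ran from -0.36 for Ddit4, an inhibitor of mTORC1 signalling, to 0.45 for Slc16a3, the lactate exporter MCT4. Ndrg1, a hypoxia and stress response gene, was at 0.41, Hif1a at 0.35 and Slc2a1, the glucose transporter GLUT1, at 0.34. No gene of the list was 3-fold higher (0.22% of all genes) or lower (0.0055%).

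Pam3CSK4 in naive cells gave a few large differences on a list with its median at the unstimulated level. Of the 33 genes, 2 were at least 2-fold higher (2.27% of all genes) and both were also past 3-fold (1.28%). None was 2-fold lower (1.95%) or 3-fold lower (0.605%). The list median was -0.00, as was that of all genes at 0.00, and 16 genes lay above 0, or 14 to 26 with other centrings. The genes past 3-fold were Pfkfb3 and Ndrg1.

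Pfkfb3 makes fructose-2,6-bisphosphate, the activator of phosphofructokinase, and so sets the pace of glycolysis. Its level in naive cells was 8.47 without ligand, 8.62 with MDP and 10.16 with Pam3CSK4. In MDP-pretreated cells it was 8.58 with MDP and 10.32 with Pam3CSK4, and in Pam3CSK4-pretreated cells 9.56 with MDP and 9.64 with Pam3CSK4. The 2 arrays of Pam3CSK4 after no ligand or after MDP were highest, the Pam3CSK4-pretreated pair intermediate, and the other 3 arrays lowest, between 8.47 and 8.62. In naive cells Pam3CSK4 stood 3.21-fold over unstimulated (1.68, or 1.43 by the other probe set of the gene). Pfkfb4, a related enzyme, went the other way by less, at -0.43.

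Ndrg1 is a cytoplasmic protein induced by hypoxia and by stress. Its level in naive cells was 10.33 without ligand, 10.74 with MDP and 11.97 with Pam3CSK4. After MDP it was 9.97 with MDP and 11.61 with Pam3CSK4, and after Pam3CSK4 it was 10.44 with MDP and 10.27 with Pam3CSK4. High values were thus seen on the 2 arrays of Pam3CSK4 given to cells that had not met it before. Naive cells given Pam3CSK4 stood 3.13-fold over unstimulated (1.65), and the 5 probe sets of the gene gave 1.65 to 2.03.

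Slc2a1 and Hif1a were also highest on the arrays of naive and MDP-pretreated cells given Pam3CSK4, short of 2-fold, and the order of the other arrays differed from that of Ndrg1. Slc2a1 was at 11.47 in unstimulated cells, 11.82 with MDP and 12.32 with Pam3CSK4, at 11.57 and 12.18 with MDP and Pam3CSK4 after MDP, and at 11.97 and 11.96 after Pam3CSK4. Hif1a was at 12.08, 12.43 and 12.75 in naive cells with no ligand, MDP and Pam3CSK4, at 12.18 and 12.79 after MDP, and at 12.37 and 12.43 after Pam3CSK4. Over unstimulated cells Pam3CSK4 gave 0.85 for Slc2a1 and 0.67 for Hif1a. The dimmer probe sets of Hif1a that lay above the array median gave 0.92 and 1.26, the second of them past 2-fold. Ero1a, the oxidase that forms disulfide bonds in the endoplasmic reticulum, was at 0.71, Slc16a3 at 0.62 and Adm, the vasodilator adrenomedullin, at 0.56. Hk2, the inducible hexokinase, was at 11.05, 11.33 and 11.48 in naive cells, at 10.82 and 11.37 after MDP, and at 11.07 and 11.24 after Pam3CSK4, a difference of 0.43 with Pam3CSK4 in naive cells. Pfkfb3, Ndrg1, Slc2a1, Hif1a and Hk2 were the 5 genes of the list with both of these Pam3CSK4 arrays, naive and MDP-pretreated, above the other 5 arrays (8.24% of all genes). The dimmest probe set of Slc2a1 did not keep that order. It gave 11.44 in Pam3CSK4-pretreated cells given MDP and 11.43 in MDP-pretreated cells given Pam3CSK4.

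Pam3CSK4 did not lower any gene of the list 2-fold in naive cells, but Ankrd37, a small ankyrin repeat protein known as a HIF-1 target, came closest at -0.90. It stood at 9.24 in unstimulated cells, 8.91 with MDP and 8.34 with Pam3CSK4, at 8.94 and 8.07 after MDP, and at 8.93 and 9.03 after Pam3CSK4. Its lowest values were therefore on the arrays where Pfkfb3 and Ndrg1 were highest. Ddit4 (-0.41) and Pdk1, the kinase that blocks entry of pyruvate into mitochondria (-0.33), were also below the unstimulated level. Vegfa, the vascular growth factor, was at -0.00 and Kdm3a, a histone demethylase, at -0.01.

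None of the glycolytic enzymes was past 2-fold 3 h after either ligand in naive cells, and they differed in direction. Over the 14 measured enzymes the median was 0.01 with MDP and -0.01 with Pam3CSK4. Pfkl, the liver-type phosphofructokinase, was at 0.28 with MDP and 0.49 with Pam3CSK4, and with Pam3CSK4 its 3 probe sets gave 0.49 to 0.59. Hk2 was at 0.28 and 0.43. Lowest with Pam3CSK4 was Aldoc, an aldolase isoform, at -0.28. Ldha, which makes lactate, was at -0.09 and Pkm, pyruvate kinase, at -0.06. Between the ligands, 2 genes of the list were at least 2-fold higher with Pam3CSK4 than with MDP (1.4% of all genes), again Pfkfb3 (2.90-fold) and Ndrg1 (2.36-fold), and none was 2-fold lower (0.709%).

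Promoter sequences are shown because these genes differed with the pretreatment or the last ligand and are known HIF-1 targets, which HIF-1 binds at a short core motif. The windows hold 250 bases before and 50 after each gene's start, from RefSeq on GRCm38.p6, and all measured members but Ndrg1 had at least 1 window. The core was searched on both strands in a form with A first, ACGTG, and a form with G first, GCGTG. Matches on the opposite strand read CACGT for the former and, for the latter, CACGC. Where both strands match, the former gives the palindrome CACGTG, which is also an E-box, the site of Myc-type factors, and was counted as a match on each strand. ACGTG was found for 25 of 32 members (78.1%), against 26.1% of 14453 genes on the array with a window. GCGTG was found for 23 of 32 (71.9%), against 47.8%. The windows of members had a median GC content of 62.8%, against 58.3%, and the members were listed for a known hypoxia response, so the shares describe the list and are no test. For Pfkfb3 (chr2:11502041-11502340, minus strand, the window of 2 with more ACGTG) and Slc2a1 (chr4:119108495-119108794, plus strand), whose levels were highest with Pam3CSK4 in naive and MDP-pretreated cells, the windows read as follows, with both forms of the core in capitals.
Pfkfb3: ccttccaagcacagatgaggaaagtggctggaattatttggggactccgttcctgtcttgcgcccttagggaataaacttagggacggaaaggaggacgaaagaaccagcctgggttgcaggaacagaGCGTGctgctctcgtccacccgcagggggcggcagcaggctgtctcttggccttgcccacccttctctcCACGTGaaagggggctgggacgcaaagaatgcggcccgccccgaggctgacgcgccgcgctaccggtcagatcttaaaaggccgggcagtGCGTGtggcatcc
Slc2a1: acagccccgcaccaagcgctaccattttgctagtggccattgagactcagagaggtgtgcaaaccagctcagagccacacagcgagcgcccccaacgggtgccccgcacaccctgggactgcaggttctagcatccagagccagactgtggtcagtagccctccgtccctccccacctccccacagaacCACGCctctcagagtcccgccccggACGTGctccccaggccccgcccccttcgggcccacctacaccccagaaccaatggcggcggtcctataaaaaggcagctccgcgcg
Counted from the start, the palindrome in Pfkfb3 began at -53 and the match in Slc2a1 at -36.

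After pretreatment with MDP no gene of the list was past 2-fold from naive cells given the same last ligand, while a few were lower by less. With MDP as the last ligand, none of the 33 genes was 2-fold higher than in naive cells (0.385% of all genes) or 2-fold lower (0.291%), and the list median was 0.00, against -0.01 for all genes. Ndrg1 (-0.76) and Hk2 (-0.50) were lowest and Ddit4 (0.43) highest. With Pam3CSK4 as the last ligand none was 2-fold higher (0.297%) or lower (0.022%), with a median of 0.01, against 0.00 over all genes. The largest difference was that of Egln3, an oxygen-sensing prolyl hydroxylase that is itself a HIF-1 target, at -0.81, or -0.76 by its other probe set.

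The step from MDP to Pam3CSK4 as the last ligand was read on different arrays in naive and in MDP-pretreated cells. Every label carries the replicate number 2, and whether these 4 arrays shared a cell preparation or a run was not tested. After MDP, 2 genes of the list were at least 2-fold higher with Pam3CSK4 than with MDP (2.41% of all genes), Pfkfb3 (1.74) and Ndrg1 (1.64), the same genes as in naive cells (1.53 and 1.24). None was 2-fold lower (1.42%), with Ankrd37 lowest at -0.87 and Pdk1 at -0.62. Across the 33 genes the steps in naive and MDP-pretreated cells had a Pearson r of 0.894 and a Spearman rho of 0.761, and across all genes of 0.833 and 0.538. Genes on the same arrays are not independent of each other, and these coefficients are descriptions.

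**Figure D2:**
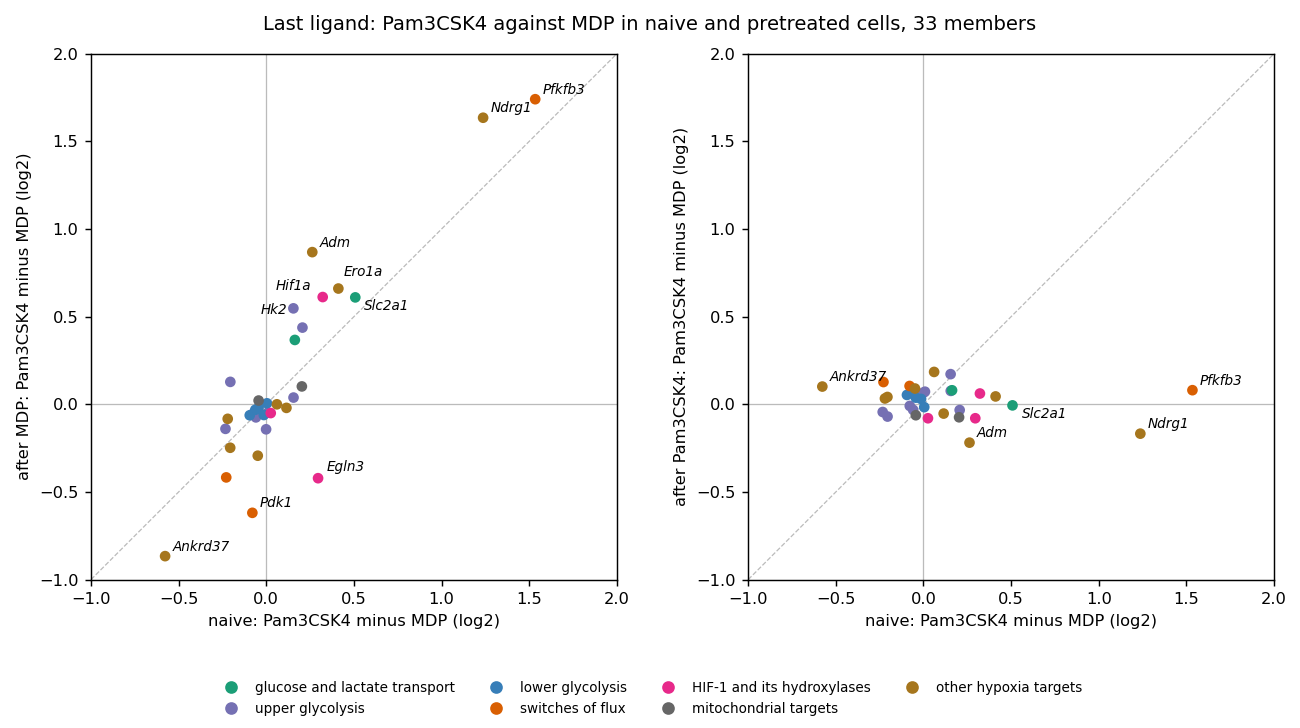
Each point is 1 of the 33 genes, coloured by role. The x axis of both panels is the log2 difference of Pam3CSK4 and MDP in naive cells, the y axis the same difference in MDP-pretreated cells (left) or Pam3CSK4-pretreated cells (right); the dashed line marks equal values. Pfkfb3 and Ndrg1 lie near the line on the left (1.74 and 1.64) and near 0 on the right (0.08 and -0.17).

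Pam3CSK4-pretreated cells showed almost no such step. Between Pam3CSK4 and MDP as the last ligand, the 33 genes differed by -0.22 (Adm) to 0.18 (Kdm3a). None was past 2-fold, where 0% of all genes were 2-fold higher and 0.0055% lower. Pfkfb3 differed by 0.08, Ndrg1 by -0.17, Slc2a1 by -0.01 and Hif1a by 0.06. Of all 21 pairs of arrays these were the closest over all genes, with a robust SD of their differences of 0.111. Whether the difference in the step between naive and Pam3CSK4-pretreated cells exceeds culture variation was not tested, with 1 array per group.

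The Pam3CSK4-pretreated cells held most of the list above its level in naive cells, with either last ligand. With MDP last, 5 of the 33 genes exceeded naive cells given MDP by 2-fold or more (2.14% of all genes) and none was 2-fold lower (1.71%), and with Pam3CSK4 last 2 were higher (2.41%) and 1 lower (2.3%) than in naive cells given Pam3CSK4. With MDP last 25 genes were above the naive level (75.8%, against 44.2% of all genes), and with Pam3CSK4 last 23 were (69.7%, against 51.6%). The list medians were 0.31 and 0.39, against -0.00 and 0.01 over all genes. The comparisons share no array, and 31 of the 33 genes had the same sign in both, against 61.1% of all genes. The listed genes all lay above the array medians, and the share over all genes was not limited to such genes. Slc2a1 (0.15 and -0.36) and Pfkfb3 (0.94 and -0.52) were the 2 with opposite signs.

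**Figure D3:**
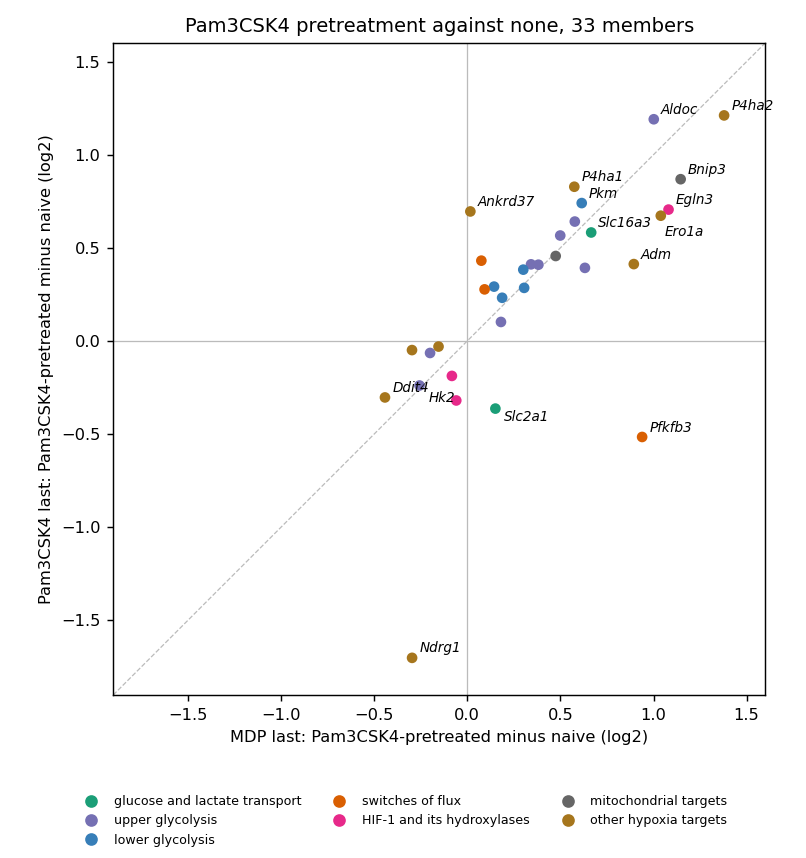
Each point is 1 of the 33 genes, coloured by role. The x axis is the log2 difference of Pam3CSK4-pretreated and naive cells with MDP as the last ligand, the y axis the same with Pam3CSK4 as the last ligand, and the dashed line marks equal values. P4ha2, Aldoc, Bnip3, Egln3 and Ero1a lie at the upper right, and Ndrg1 (-0.30 and -1.70) and Pfkfb3 far below the line.

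The largest differences above the naive level were those of a few hypoxia targets and of Aldoc. Some further hypoxia targets were below that level, or differed with the last ligand or the probe set. Over the 9 genes grouped as other hypoxia targets, 5 were above the naive level with either last ligand, and the medians were 0.02 with MDP and 0.41 with Pam3CSK4. Vegfa was at -0.30 and -0.05, but at 0.17 and 0.37 by its other probe set, so its direction depends on the probe set. Kdm3a was at -0.15 and -0.03, Ddit4 at -0.44 and -0.30, and Ankrd37 at 0.02 and 0.70. P4ha2, a collagen prolyl hydroxylase subunit, was at 7.39, 7.21 and 7.32 in naive cells with no ligand, MDP and Pam3CSK4, at 7.60 and 7.58 after MDP, and at 8.59 and 8.53 after Pam3CSK4. Both Pam3CSK4-pretreated arrays were above the other 5 by at least 0.94, and stood 2.60-fold and 2.31-fold over the naive arrays with the same last ligand. P4ha1, the partner isoform, was at 0.57 and 0.83 in the same comparisons. Bnip3, a mitochondrial protein that marks mitochondria for mitophagy, was at 11.40, 11.48 and 11.69 in naive cells, at 11.53 and 11.63 after MDP, and at 12.63 and 12.55 after Pam3CSK4. It was 2.21-fold over naive cells given MDP and 1.83-fold over naive cells given Pam3CSK4. Higd1a, a hypoxia-induced protein of the inner mitochondrial membrane, was at 0.47 and 0.46, but at -0.25 and -0.29 by the second of its probe sets, so its direction depends on the probe set.

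Egln3 was at 8.88, 9.08 and 9.38 in naive cells, at 8.99 and 8.57 after MDP, and at 10.16 and 10.08 after Pam3CSK4. Its values in Pam3CSK4-pretreated cells were above all others, 2.11-fold and 1.63-fold over the matched naive arrays. Its other probe set gave 0.60 and 0.40, short of 2-fold. Its lowest was in MDP-pretreated cells given Pam3CSK4. Egln1, the main oxygen sensor among the hydroxylases, ranged over only 0.21 in the 7 arrays. Ero1a was at 10.68, 10.98 and 11.39 in naive cells, at 10.62 and 11.28 after MDP, and at 12.02 and 12.06 after Pam3CSK4. It was already higher with Pam3CSK4 in naive cells, and was highest in the Pam3CSK4-pretreated pair, 2.05-fold and 1.59-fold over the matched naive arrays. Its 3 probe sets were all past 2-fold with MDP as the last ligand, from 1.04 to 1.58.

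Slc16a3 was at 9.44, 9.89 and 10.05 in naive cells, at 9.77 and 10.14 after MDP, and at 10.56 and 10.64 after Pam3CSK4. The Pam3CSK4-pretreated pair stood 0.67 and 0.58 over the matched naive arrays and 2.17-fold and 2.30-fold over unstimulated cells. Adm was at 5.89, 6.19 and 6.45 in naive cells, at 5.91 and 6.78 after MDP, and at 7.08 and 6.86 after Pam3CSK4, with levels close to the array median. Its difference from naive cells was 0.89 with MDP last and 0.41 with Pam3CSK4 last, and 0.56 and 0.59 by its other probe set. Ddit4 was the 1 gene of the list with both Pam3CSK4-pretreated arrays below the other 5 (14.7% of all genes), at 8.15 and 8.24 against 8.54 to 9.02.

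Windows are shown in the same form for further genes past 2-fold on both Pam3CSK4-pretreated arrays, over unstimulated cells or, for Aldoc, over the matched naive arrays. They are Bnip3 (chr7:138909457-138909756, minus strand), P4ha2 (chr11:54100674-54100973, plus strand), Egln3 (chr12:54203825-54204124, minus strand), Ero1a (chr14:45318523-45318822, minus strand), Slc16a3 (chr11:120948817-120949116, plus strand) and Aldoc (chr11:78322823-78323122, plus strand, the window of 2 with ACGTG).
Bnip3: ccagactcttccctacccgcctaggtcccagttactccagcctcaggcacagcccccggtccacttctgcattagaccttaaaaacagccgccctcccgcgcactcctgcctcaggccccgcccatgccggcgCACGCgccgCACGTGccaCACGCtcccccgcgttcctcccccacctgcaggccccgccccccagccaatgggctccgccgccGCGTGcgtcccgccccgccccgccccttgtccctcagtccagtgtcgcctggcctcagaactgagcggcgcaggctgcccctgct
P4ha2: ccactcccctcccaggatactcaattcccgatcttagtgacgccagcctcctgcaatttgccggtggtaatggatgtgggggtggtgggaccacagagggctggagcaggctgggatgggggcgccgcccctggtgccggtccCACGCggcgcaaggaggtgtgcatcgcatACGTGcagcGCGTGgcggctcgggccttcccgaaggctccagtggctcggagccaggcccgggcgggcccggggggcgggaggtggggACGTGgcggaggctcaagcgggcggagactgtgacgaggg
Egln3: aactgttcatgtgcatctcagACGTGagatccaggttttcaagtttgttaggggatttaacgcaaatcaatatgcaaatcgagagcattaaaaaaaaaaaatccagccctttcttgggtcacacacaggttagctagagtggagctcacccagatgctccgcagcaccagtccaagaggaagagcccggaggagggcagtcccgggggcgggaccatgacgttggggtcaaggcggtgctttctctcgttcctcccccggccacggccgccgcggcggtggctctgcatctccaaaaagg
Ero1a: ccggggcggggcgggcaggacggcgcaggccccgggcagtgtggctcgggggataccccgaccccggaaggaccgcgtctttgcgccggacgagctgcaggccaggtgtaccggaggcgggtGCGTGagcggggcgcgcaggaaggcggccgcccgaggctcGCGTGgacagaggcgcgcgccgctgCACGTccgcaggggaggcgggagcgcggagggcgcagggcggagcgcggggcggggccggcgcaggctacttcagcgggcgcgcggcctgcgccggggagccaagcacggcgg
Slc16a3: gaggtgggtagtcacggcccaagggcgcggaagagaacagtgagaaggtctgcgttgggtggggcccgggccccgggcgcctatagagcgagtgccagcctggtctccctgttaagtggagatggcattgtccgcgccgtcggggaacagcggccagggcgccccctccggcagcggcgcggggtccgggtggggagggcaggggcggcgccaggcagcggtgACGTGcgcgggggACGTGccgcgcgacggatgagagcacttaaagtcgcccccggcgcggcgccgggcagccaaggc
Aldoc: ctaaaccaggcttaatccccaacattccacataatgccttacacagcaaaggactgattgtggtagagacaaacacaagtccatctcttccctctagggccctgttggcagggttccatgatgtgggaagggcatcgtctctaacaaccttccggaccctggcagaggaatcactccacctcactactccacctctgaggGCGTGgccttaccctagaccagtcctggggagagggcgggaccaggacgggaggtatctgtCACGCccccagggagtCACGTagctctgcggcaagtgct
Bnip3 carried the palindrome, beginning at -108 from the start, flanked on both sides by CACGC. Slc16a3 carried ACGTG in 2 places, at -27 and -14, and P4ha2 in 2 places, at -78 and 10. Egln3 had its single match at -229, and the other form of the core was not found in its window. A match is a description of the letters and shows no binding.

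Most of the glycolytic enzymes were also above the naive level, all but Aldoc by less than 2-fold. In Pam3CSK4-pretreated cells 12 of the 14 were above the naive level with either last ligand, with medians of 0.32 and 0.39. Differences ran from -0.26 (Hk2) to 1.00 (Aldoc) with MDP last and from -0.24 to 1.19, for the same genes, with Pam3CSK4 last. On both Pam3CSK4-pretreated arrays 12 of the 14 were above all other 5 arrays, as were 20 of the 33 listed genes, against 15.8% of all genes. The exceptions were Hk2 and Pfkp, the platelet-type phosphofructokinase. These counts rest on the brightest probe set of each gene. Aldoc, Pfkl, Adm and Higd1a each had a dimmer probe set, also above the array medians, that did not keep this order. That of Higd1a was at 7.40 on both Pam3CSK4-pretreated arrays, below the other 5. The gap was 0.03 for Hk1, so its place at the top is within the differences seen between the closest arrays. After MDP the medians of the 14 were 0.04 and 0.03 against the matched naive arrays.

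Among the enzymes of the upper part, Aldoc was at 10.18, 10.13 and 9.90 in naive cells, at 10.43 and 10.29 after MDP, and at 11.13 and 11.09 after Pam3CSK4. This made 2.00-fold and 2.28-fold over the matched naive arrays, but the dimmer probe set of Aldoc gave 0.09 and 0.27. Pfkl was at 11.22, 11.50 and 11.71 in naive cells, at 11.23 and 11.67 after MDP, and at 12.13 and 12.10 after Pam3CSK4, 0.63 and 0.39 over the matched arrays. The dimmest of its 3 probe sets gave -0.06 and -0.43, so its direction depends on the probe set. Pfkm, the muscle-type isoform, was at 0.58 and 0.64 and Hk3, the hexokinase typical of myeloid cells, at 0.50 and 0.57. The aldolase Aldoa was at 0.38 and 0.41, with its 5 probe sets between 0.02 and 0.55. The isomerase Tpi1 was at 0.34 and 0.41, with its 3 probe sets between 0.34 and 0.44.

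In the lower part, Pkm was at 12.85, 12.85 and 12.79 in naive cells, at 12.89 and 12.86 after MDP, and at 13.46 and 13.53 after Pam3CSK4. The Pam3CSK4-pretreated pair was 1.53-fold and 1.67-fold over the matched naive arrays, and the other 5 arrays lay between 12.79 and 12.89. Gapdh was at 14.13, 14.16 and 14.16 in naive cells, at 14.20 and 14.20 after MDP, and at 14.47 and 14.45 after Pam3CSK4, 0.31 and 0.29 over the matched arrays. Ldha was at 13.67, 13.67 and 13.58 in naive cells, at 13.65 and 13.59 after MDP, and at 13.82 and 13.87 after Pam3CSK4, 0.14 and 0.29 over the matched arrays. The kinase Pgk1 was at 0.30 and 0.38 and the mutase Pgam1 at 0.19 and 0.23. Levels of these genes lay close to the top of the scale, where the highest value of any array was 15.1, and whether the signal was compressed there was not tested.

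**Figure D4:**
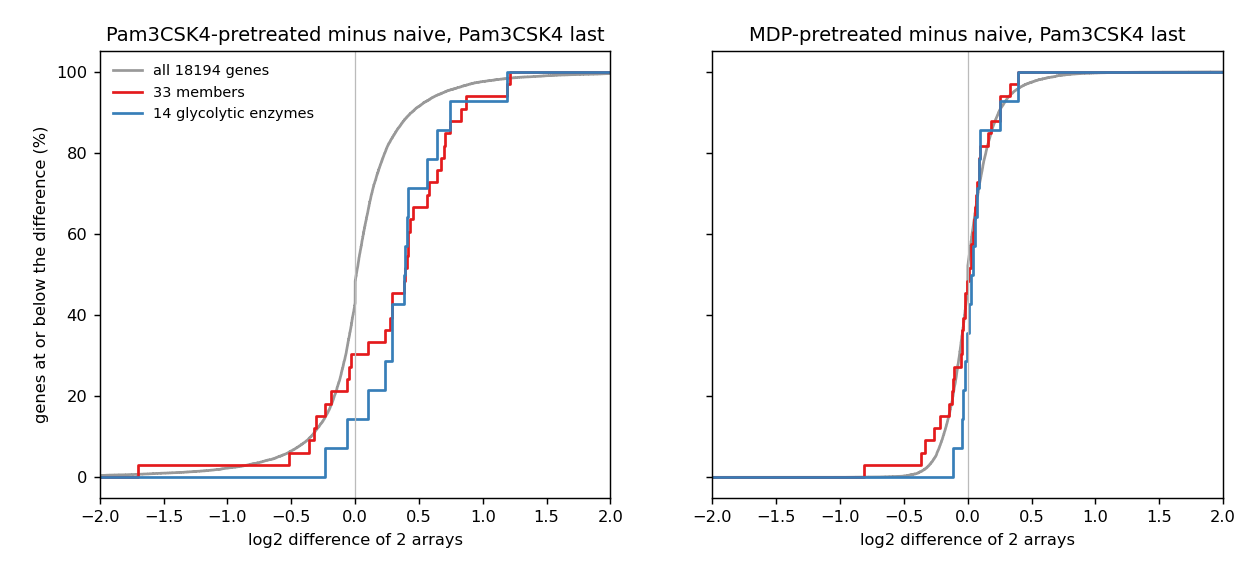
Cumulative share of genes (y axis, percent) at or below each log2 difference (x axis), for all 18194 genes (grey), the 33 listed genes (red) and the 14 glycolytic enzymes (blue), with Pam3CSK4 as the last ligand. After Pam3CSK4 pretreatment (left) the red and blue curves lie to the right of the grey one, with medians of 0.39 and 0.39 against 0.01, and after MDP pretreatment (right) the curves lie close together, with medians of 0.01 and 0.03 against 0.00.

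Ndrg1 was the 1 gene of the list past 2-fold lower after Pam3CSK4 pretreatment. With Pam3CSK4 as the last ligand it stood 3.25-fold below naive cells (-1.70), and all 5 of its probe sets gave -1.77 to -1.52. It was then at -0.06 from unstimulated cells. Pfkfb3, with the same pattern in naive cells, was at -0.52 in this comparison and was 2.25-fold over unstimulated cells. Slc2a1 (-0.36) and Hif1a (-0.32) were also below naive cells given Pam3CSK4. Of the genes with the other pattern, Egln3, Ero1a and Bnip3 were 2.30-fold, 2.61-fold and 2.23-fold over unstimulated cells on that array.

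**Figure D5:**
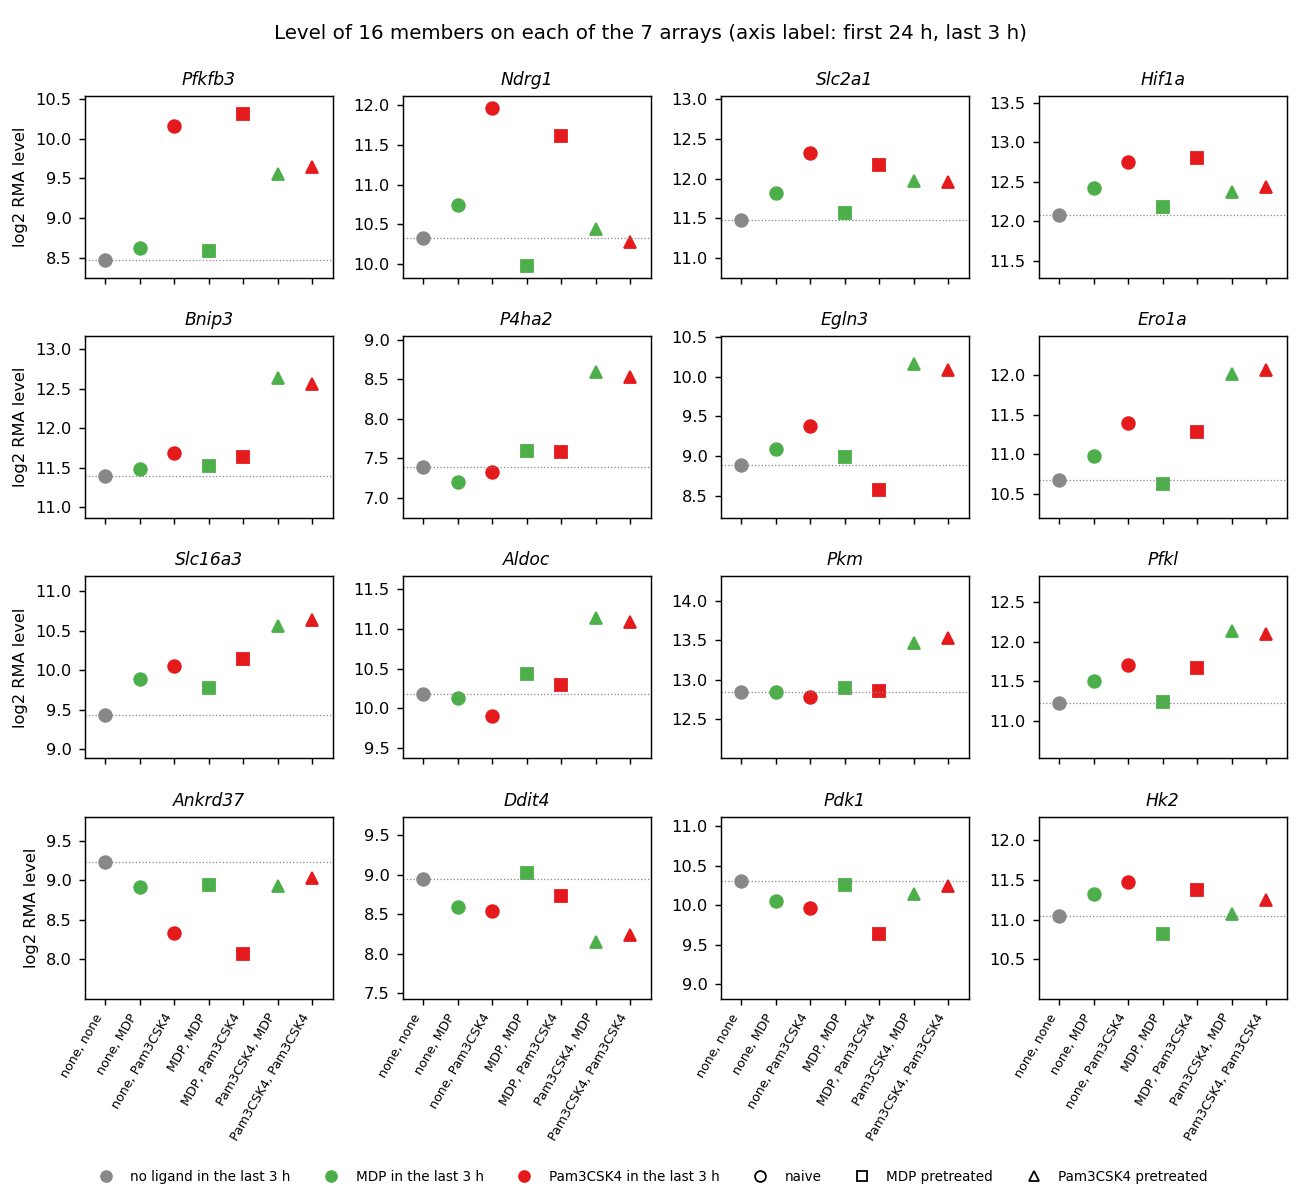
Log2 RMA level (y axis, 2.3 units high in every panel) of 16 of the genes on each of the 7 arrays (x axis, ligand of the first 24 h and of the last 3 h). Colour gives the last ligand, marker shape the pretreatment, and the dotted line the unstimulated level. The top row is highest with Pam3CSK4 in naive and MDP-pretreated cells, and in the middle rows the Pam3CSK4-pretreated pair lies above the other 5 arrays.

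Against unstimulated cells, 7 genes of the list were at least 2-fold higher in Pam3CSK4-pretreated cells given MDP (2.78% of all genes) and 6 in those given Pam3CSK4 (2.66%), with none 2-fold lower (2.59% and 2.29%). Slc16a3, Pfkfb3, Bnip3, Egln3, Ero1a and P4ha2 were in both, and Adm in the first (1.19) with 0.97 in the second. The other probe set of Egln3 gave 0.71 and 0.62, and that of Adm 0.62 and 0.78, all short of 2-fold. In MDP-pretreated cells given Pam3CSK4, Pfkfb3 (3.59-fold) and Ndrg1 (2.43-fold) were 2-fold higher (3.03%) and Ankrd37 (-1.16) 2-fold lower (1.8%). In MDP-pretreated cells given MDP none was 2-fold higher (0.39%) or lower (0.0385%). These comparisons share the unstimulated array.

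The array with raised 18S signal was that of Pam3CSK4-pretreated cells given Pam3CSK4. On the other Pam3CSK4-pretreated array, where 18S was 0.47 to 0.52 over unstimulated, the levels of the 33 genes were within 0.22 of it. Cell type markers also differed on this pair. Both arrays were above the other 5 for 10 of 33 measured markers of cells other than macrophages and below them for 3. For macrophage markers these counts were 4 and 2 of 8. Over all genes the shares were 15.8% above and 14.7% below. Among macrophage markers Itgam was 1.30 and 1.44 and Fcgr1 1.16 and 1.35 over the matched naive arrays. The 2 macrophage markers below the other 5 arrays were Csf1r (-0.29 and -0.17 from the matched naive arrays) and Cd68 (-0.26 and -0.20). The B cell gene Cd79b was at 8.16 and 7.97 against 7.16 to 7.66, and Pax5 at 6.61 and 6.50 against 6.32 to 6.48. Of the other B cell markers, Ms4a1 and Blk were below the array median on all 7 arrays, and Cd79a was above it on 1. Among stromal markers Dcn was at 8.34 and 8.03 against 6.28 to 6.69 and Col1a2 at 6.50 and 6.51 against 6.18 to 6.34, while Col1a1, Col3a1 and Pdgfra were below the array median on all 7. The summed neutrophil signal was 12.1 on both, against 11.5 to 12.2 on the other arrays. Csf3r, a neutrophil receptor gene also found in macrophages, was at 11.48 and 11.46 against 10.20 to 10.96, and Ltf at 6.88 and 6.41 against 7.57 to 8.15. Their part in the differences was not tested. In whole cultures a changed level per cell and a changed share of cells cannot be told apart.

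Other genes of glycolysis, pyruvate use and the hypoxia response, outside the list, were read from a fixed set. With Pam3CSK4 in naive cells, 2 of 26 further measured genes of glucose and pyruvate metabolism were at least 2-fold higher (2.27% of all genes). Another 2 were lower (1.95%). Higher were Slc2a6, a hexose transporter of lysosomes (3.52, and 2.33 with MDP), and the enolase isoform Eno2 (1.03), and lower were the glucose transporter Slc2a3 (-1.17) and Pdp1, the phosphatase that activates pyruvate dehydrogenase (-2.01). In Pam3CSK4-pretreated against naive cells with MDP last, 2 of the 26 were 2-fold higher (2.14% of all genes) and 1 lower (1.71%). With Pam3CSK4 last 3 were higher (2.41%) and 1 lower (2.3%). Pgm1, a phosphoglucomutase, was 1.28 and 1.34 over naive cells with MDP and Pam3CSK4 last, and Pdk3, a pyruvate dehydrogenase kinase, 1.42 and 1.45. Pdp1 was 2.18 over naive cells given Pam3CSK4, at 9.08, beside 8.91 in unstimulated cells. Lower were the monocarboxylate transporter Slc16a7 with MDP last (-1.01) and Slc2a6 with Pam3CSK4 last (-1.07). Of a further 35 hypoxia response genes, 1 was at least 2-fold higher with Pam3CSK4 in naive cells (2.27% of all genes) and 1 lower (1.95%). The higher gene was Ier3 (2.01) and the lower Zfp395 (-1.25). The 35 genes were also compared between Pam3CSK4-pretreated and naive cells. With MDP last 4 were 2-fold higher in the pretreated cells (2.14% of all genes) and 3 lower (1.71%). With Pam3CSK4 last 3 were higher (2.41%) and 1 lower (2.3%). The glycogen genes Gys1 (1.46 and 1.02) and Gbe1 (1.35 and 1.58) and the haem oxygenase Hmox1 (1.05 and 1.42) were higher in both. Plod2, a collagen lysyl hydroxylase, was at 1.20 and the circadian repressor Bhlhe40 at -1.58 with MDP last. Epas1 (HIF-2 alpha) and Angptl4, the others counted as lower, were below the array median in Pam3CSK4-pretreated cells. Set against that median, Epas1 was short of 2-fold (-0.94 and -0.88) and Angptl4 past it (-1.14). None of 8 measured pentose phosphate genes was past 2-fold in these comparisons.

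The 4 genes of macrophage activation read beside the list each had an order of their own. Il1b, a known HIF-1 target in macrophages, was at 6.67, 9.73 and 14.17 in naive cells, at 8.83 and 14.19 after MDP, and at 12.45 and 12.11 after Pam3CSK4. It was highest on the arrays where Pfkfb3 and Ndrg1 were highest. Arg1, the arginase of alternatively activated macrophages, was at 5.67, 5.79 and 5.82 in naive cells, at 7.06 and 5.83 after MDP, and at 11.13 and 10.90 after Pam3CSK4. Its high values were on the arrays where Bnip3, P4ha2 and Egln3 were highest. Acod1, which makes itaconate, was at 7.85, 12.85 and 13.78 in naive cells, at 11.24 and 14.01 after MDP, and at 14.02 and 13.99 after Pam3CSK4, so that it was high with either pattern of arrays. Nos2, the inducible nitric oxide synthase, was at 5.96, 6.15 and 6.86 in naive cells, at 5.69 and 7.76 after MDP, and at 6.94 and 6.73 after Pam3CSK4, highest in MDP-pretreated cells given Pam3CSK4.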

How the data were processed

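The deposited values are log2 expression per probe set from the authors, and the submitters' processing notes name affy and RMA; versions, probe set definitions and the arrays normalized together are not given in the sources used here. The table held 45101 probe sets, of which 34958 had 1 gene symbol in the platform table, 932 several and 9211 none, with no missing values. Higher values mean more signal, and no gene was centred. Each gene was represented by its probe set with the highest mean, and 2 arrays were subtracted on the log2 scale in each of 7 comparisons, with 6 more given side by side. Named genes were the list itself and, outside it, genes of fixed pathway and marker lists past 2-fold and 4 genes of macrophage activation. Col1a1, Col1a2, Col3a1, Pdgfra, Cd79a, Cd79b, Pax5, Ms4a1, Blk, Csf1r and Cd68 are markers named beyond that rule, after their values were seen. The members, lists, promoter windows printed and thresholds were chosen with earlier results of these data known. The calculation was tested on simulated data. Python 3.11.15 with numpy 2.4.6 and pandas 2.3.3, and limma 3.58.1 in R 4.3.3 for cyclic loess (span 0.7, 3 iterations), were used. Alternatives were centring arrays on medians or on 9 housekeeping genes, cyclic loess, averaging all probe sets per gene, and adding 32 to linear values. Others were requiring the higher array above its median, a 1.5-fold threshold, and dropping suffixed probe sets. Suffixed probe sets are those with names ending in _s_at, _x_at or _a_at.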

Additional observations from a re-analysis of the deposited data

Results flagged for a closer look

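Ndrg1 differed in sign in the same contrast, Pam3CSK4 against MDP as the last ligand. It was higher with Pam3CSK4 by 1.24 in naive cells and by 1.64 in MDP-pretreated cells, and was at -0.17 in Pam3CSK4-pretreated cells. The difference was not tested, since each value rests on 2 single arrays, and the last of them is small.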

How the results depend on the processing

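No paired analysis was possible because every group has 1 array and every label carries the replicate number 2, and no replicate could be left out. Under centring on medians, cyclic loess, 32 added and the filter on dim probe sets, counts of listed genes past 2-fold stayed within 1.5 times of those given, in the 7 comparisons. With housekeeping centring they did too, and Pfkfb3 crossed 2-fold (1.02) for Pam3CSK4-pretreated against naive cells with MDP last. With all probe sets of a gene averaged, the 5 higher genes in that comparison became 3 (Aldoc 0.55, Egln3 0.84). The 2 higher genes with Pam3CSK4 last became 1 (Aldoc 0.73), as they did without suffixed probe sets. At 1.5-fold the counts for Pam3CSK4 in naive cells were 6 higher (4.11% of all genes) and 1 lower (6.07%). For MDP after MDP 1 was lower (1.13%), and for Pam3CSK4 after MDP 1 was lower (0.192%). In Pam3CSK4-pretreated cells 10 were higher with MDP last (4.95%) and 9 with Pam3CSK4 last (6.77%). No gene past 2-fold changed sign. With 32 added, Aldoc was at 0.98 with MDP last. Without suffixed probe sets 27 listed genes had a value, and Aldoc was at 0.09 and 0.27. Centred on medians, 0.522% of all genes were higher and 0.247% lower for MDP after MDP. The list median in Pam3CSK4-pretreated against naive cells ran from 0.29 to 0.40 with MDP last and from 0.31 to 0.40 with Pam3CSK4 last. For Pam3CSK4 in naive cells it was 0.11 under cyclic loess, with 25 genes above 0. Signal near the array median limits Adm.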
